A study of Mus musculus with 4 samples.

Results

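Of the 23922 genes in the authors' deposited table, 158 carry the names of 5 families that move membrane between the compartments of a cell. Members were chosen by gene name alone: 71 Rab genes, 32 Vps genes, 30 sorting nexins (Snx), 14 subunits of the TRAPP tethering complexes (Trappc) and 11 coat genes, which are the clathrin chains (Clta, Cltb, Cltc) and subunits of the COPI coat (Cop). Trappc13 was left out. The RNA came from E14 cells, a single line of mouse embryonic stem cells, grown with serum and leukemia inhibitory factor on gelatin. Cells of 2 libraries were transfected with esiRNA against Pnldc1, a gene of the PARN family of poly(A)-shortening enzymes, and cells of 2 libraries with esiRNA against luciferase (Luc), which mouse cells lack. An esiRNA is a mixture of many short interfering RNAs made by enzymatic cleavage of 1 long duplex. All cells received the same lipid transfection reagent, and the labels do not state whether the 2 libraries of an esiRNA were grown as separate cultures, so the p-values may measure technical spread only.

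The authors combined the libraries into 2 conditions, q2 and q1, and no source used here says which esiRNA either one stands for. Differences therefore run between q2 and q1, as the log2 ratio q2/q1, and say nothing of which way a gene moved on silencing. Each gene has 1 value per condition, so no value has an SD. The replicate error enters only through the authors' Cuffdiff test, a test of the difference between conditions, whose q is its p-value adjusted over all tested genes. A gene passed at a q under 0.05.

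Vesicles bud from one membrane under a protein coat, clathrin at the plasma membrane and the trans-Golgi, or COPI at the Golgi. Rab GTPases mark each compartment and recruit the motors and tethers that bring a vesicle to it. TRAPP complexes tether vesicles and activate Rab GTPases. Vps proteins, named after yeast mutants in vacuolar protein sorting, form the endosomal machines that sort cargo back to the Golgi (retromer, GARP), into the lumen of endosomes (ESCRT) or on to the lysosome (HOPS). Sorting nexins bind phosphoinositides on endosomes and bend membrane or select cargo.

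Pnldc1 itself had a value of 26.8 in q2 and 18.1 in q1 in the authors' deposited table and did not pass (Cuffdiff q = 0.399). All 12 embryonic stem cell markers listed were tested, with values of 18.2 to 865 in q2 and 27.5 to 714 in q1 in the authors' deposited table, and none passed. Of 8 markers of fibroblasts, the cells used as feeders, 5 were at 0 in both conditions (Col1a2, Col3a1, Postn, Lum and Dcn), and the summed value of the list was 14.3 in q2 and 7.40 in q1. The highest single value made up most of each sum, 13.0 in q2 and 6.17 in q1, and none of the 8 was tested. The summed values of markers of primitive endoderm, trophoblast, nerve and mesoderm were between 1.91 and 6.49 in q2 and between 0.371 and 3.83 in q1. In low coding genes with a single transcript, the value multiplied by transcript length mostly fell in steps that correspond to 1 fragment, as on a scale per kilobase, so levels of different genes are set side by side here. Steps of this size would arise from about 1380000 fragments in q2 and 1210000 in q1. Read equivalents given below are values converted with these totals, and are estimates for a condition, not for a library.

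The authors tested 72 of the 158 genes: 24 Rab, 17 Vps, 14 sorting nexin, 9 coat and 8 TRAPP genes. Of these, 3 passed (4.17%), against 243 of all 5719 tested genes (4.25%), so the share is near that of the table as a whole. Cltc, the clathrin heavy chain, and Snx27, a retromer cargo adaptor, were higher in q1, on which side 1.94% of all tested genes passed. Cope, the epsilon subunit of COPI, was higher in q2, on which side 2.31% of all tested genes passed. At an unadjusted Cuffdiff p under 0.05 there were 13 members (18.1%, against 18.8% of all tested genes), 7 higher in q2 (9.72%, against 10.5% of all tested genes) and 6 higher in q1 (8.33%, against 8.29%). The median log2 ratio of the 72 genes was -0.08, against 0.06 for all tested genes, and 30 of the 72 (41.7%) lay above 0, against 55.3% of all tested genes. Most differences were small: 55 of the 72 had an absolute log2 ratio under 0.5. The summed value of the 72 genes was 3101 in q2 and 3107 in q1.

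The other 86 genes were not tested. None of them had a value above 13.9 in q2 or 13.5 in q1, while the higher of the 2 values of each tested member was at least 14.7. Untested genes listed at 0 in both conditions numbered 6, and 13 more were listed at 0 in 1 condition. Among the untested were the 4 Vps13 lipid transfer proteins (Vps13a to Vps13d) and the TRAPPII subunits Trappc9 and Trappc10. The related nexins Snx13, Snx14, Snx19 and Snx25 and 37 of the 58 Rab GTPases were also untested. Counts and medians below describe the tested genes only. Some values are uncertain because another gene has a near-identical sequence to which reads can be assigned (at least 95% identity over 200 bases), among them Vps4b, Vps25, Rab2a, Rab4b, Rab6a, Rab7, Rab9, Snx2, Snx4, Vps51 and Trappc6b. Others overlap a gene on the opposite strand, as Snx5 does with Mgme1, Copa with Ncstn and Vps35 with Orc6, and the sources used here do not say whether counting used the strand.

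**Figure D1:**
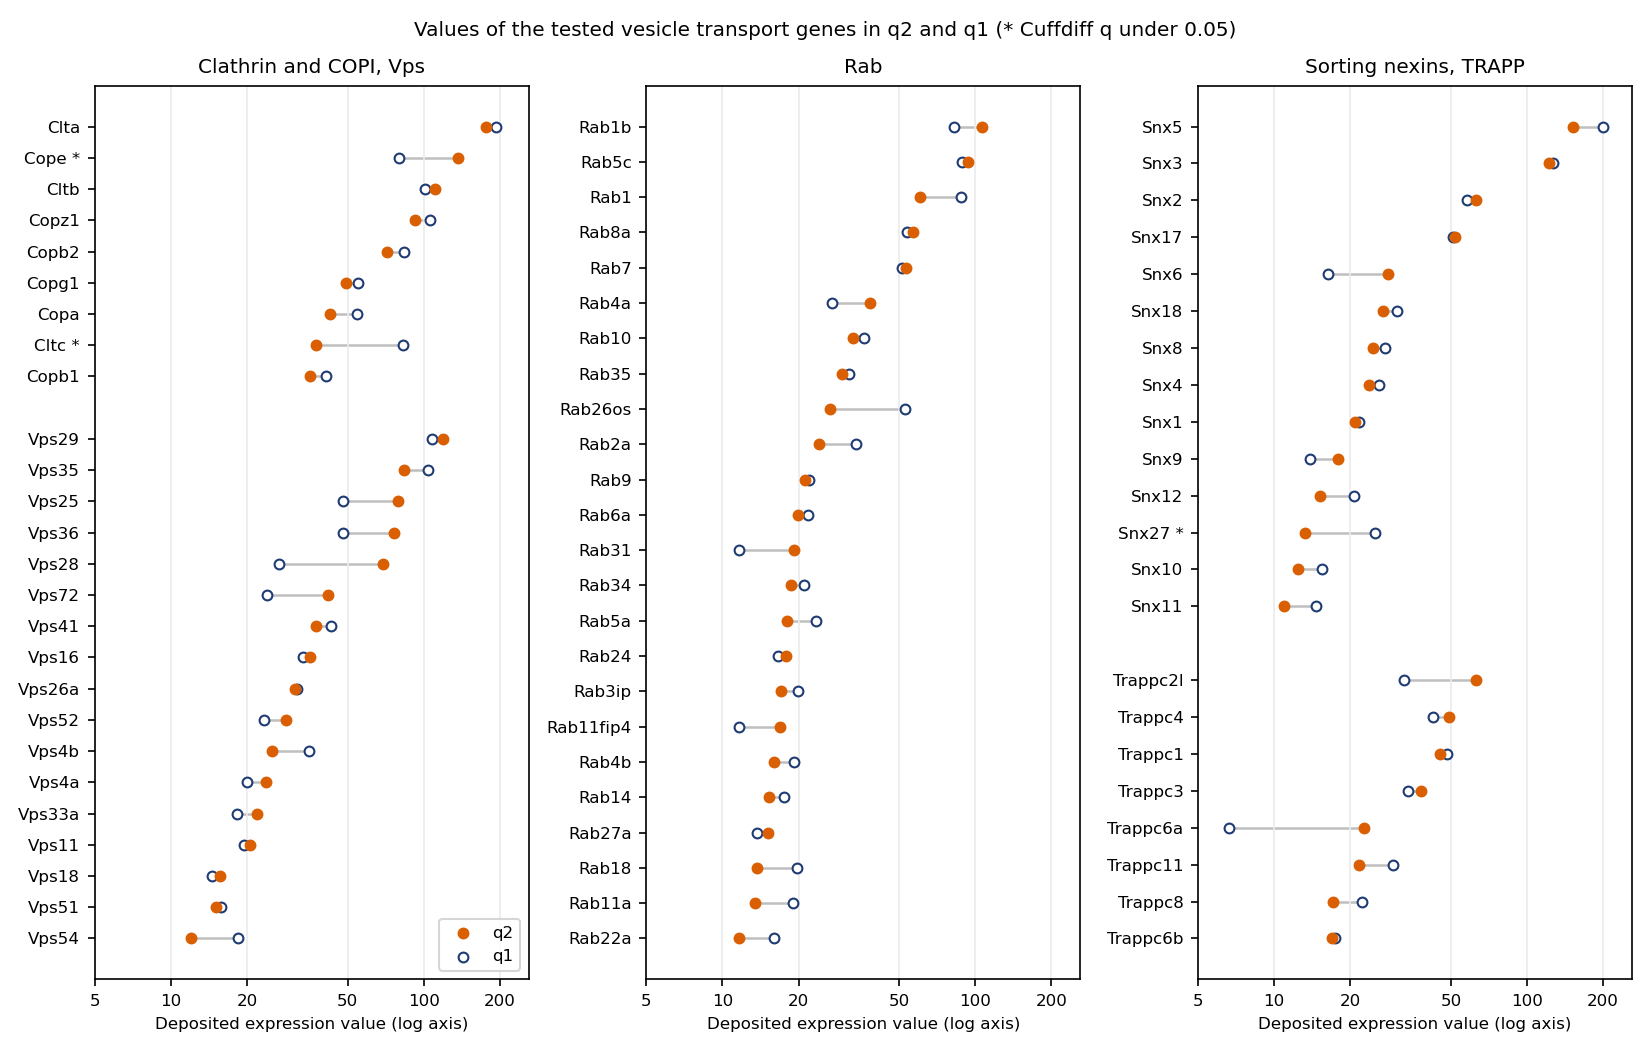
Deposited values of the 72 tested genes on a log axis, in q2 (filled) and q1 (open), ordered within each family by the q2 value; an asterisk marks a Cuffdiff q under 0.05. The heavy chain Cltc is the member whose q1 value lies farthest above its q2 value among the coat genes, 37.5 in q2 and 82.9 in q1, while Trappc6a has the lowest q1 value of all, 6.63.

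Clathrin heavy chains form the triskelion whose legs assemble into the cage around a vesicle, and light chains bind those legs and regulate assembly. Cltc had a value of 37.5 in q2 and 82.9 in q1 in the authors' deposited table, about 337 and 654 read equivalents. This was 2.21-fold lower in q2, with a log2 ratio of -1.14 (p = 1e-04, q = 0.00608 by Cuffdiff in the authors' deposited table). In RNA of whole cultures, fewer cells of a type and less RNA per cell cannot be told apart. The gene occupies bases 86694351 to 86757565 on the minus strand of chromosome 11 (GRCm38), and no other annotated gene overlaps its exons. The light chains did not pass. Clta had 175.7 in q2 and 192.9 in q1 in the authors' deposited table (log2 ratio -0.13, Cuffdiff q = 0.744), and Cltb had 110.4 in q2 and 100.9 in q1 (0.13, q = 0.771). Light chain RNA, summed, came to 286.1 in q2 and 293.8 in q1, so the value of the heavy chain over that of the light chains was 0.131 in q2 and 0.282 in q1. With the length and GC trend described below subtracted, the log2 ratios came to -0.85 for Cltc, -0.48 for Clta and 0.04 for Cltb. The difference between the chains was not tested, because each condition has only 1 value per gene.

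COPI returns cargo from the Golgi to the endoplasmic reticulum, and all its subunits but delta, named Arcn1, are under the naming rule. Cope had a value of 137.1 in q2 and 79.9 in q1 in the authors' deposited table, or 1.72-fold higher in q2 (log2 ratio 0.78, Cuffdiff p = 0.00205, q = 0.0488). It occupies bases 70302518 to 70312993 on the plus strand of chromosome 8 (GRCm38), and its q is just inside the threshold, which it missed when q was adjusted over protein-coding genes alone. The 5 other tested subunits under the rule all had a slightly lower value in q2, and none passed. With the length and GC trend described below subtracted, Copb1 came to 0.04. Copa, the alpha subunit, had 42.6 in q2 and 54.7 in q1 (log2 ratio -0.36, Cuffdiff q = 0.333) in the authors' deposited table. Copb2 had 71.9 in q2 and 84.0 in q1 (-0.22), and Copb1 had 35.5 in q2 and 41.1 in q1 in the authors' deposited table (-0.21). Copz1 had 92.8 in q2 and 106.1 in q1 (-0.19), and Copg1 had 49.1 in q2 and 55.1 in q1 in the authors' deposited table (-0.17). Summed, these 5 came to 292.0 in q2 and 341.1 in q1, so the value of Cope over their sum was 0.470 in q2 and 0.234 in q1. In the authors' deposited table, Copg2 (11.9 in q2 and 9.42 in q1) and Copz2 (listed at 0 in q2 and 0.988 in q1), the alternative gamma and zeta subunits, were not tested. Arcn1 had 38.8 in q2 and 47.8 in q1 in the authors' deposited table (-0.30, q = 0.446).

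Sorting nexins were mostly a little lower in q2: 10 of the 14 tested had a ratio below 0, with a median of -0.15, and Snx27 passed. Snx27 carries a PDZ domain that binds receptors and hands them to retromer for return to the plasma membrane. Its value was 13.3 in q2 and 25.01 in q1 in the authors' deposited table (1.88-fold lower in q2, log2 ratio -0.91, Cuffdiff p = 0.00025, q = 0.0122). That is about 64.8 read equivalents in q2 and 106.9 in q1. Snx27 occupies bases 94497544 to 94582716 on the minus strand of chromosome 3 (GRCm38). Snx17, the related nexin that returns integrins to the surface, had 52.0 in q2 and 50.9 in q1 in the authors' deposited table (0.03, q = 0.987), a ratio that became -0.03 once the median of all tested genes was subtracted.

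The nexins Snx1, Snx2, Snx5 and Snx6 carry a membrane-bending BAR domain and form the ESCPE-1 complex, a pair of Snx1 or Snx2 with Snx5 or Snx6, which takes cargo from endosomes to the trans-Golgi. Snx5 had the highest value of all 72 genes in q1. Its value was 152.4 in q2 and 199.3 in q1 in the authors' deposited table (log2 ratio -0.39, Cuffdiff p = 0.0214, q = 0.175). Snx6, which can take its place, had 28.3 in q2 and 16.3 in q1 in the authors' deposited table (0.80, Cuffdiff p = 0.0258, q = 0.189). Neither passed after adjustment, and the 2 differences point in opposite directions. In the authors' deposited table, Snx1 (20.8 in q2 and 21.6 in q1) and Snx2 (62.8 in q2 and 58.0 in q1) had log2 ratios of -0.05 and 0.11. Snx3, which works with retromer in the recycling of the Wnt carrier Wntless, had 122.3 in q2 and 126.4 in q1 in the authors' deposited table (-0.05). The remaining tested nexins had log2 ratios between -0.45 for Snx12 and 0.36 for Snx9, which acts with dynamin in endocytosis, and none had an unadjusted p under 0.05.

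Vps genes were the family with the most ratios above 0, 11 of 17, where 55.3% of all tested genes lay above 0. Their median log2 ratio was 0.10. None passed the threshold on the Cuffdiff q, against 4.25% of all tested genes. At an unadjusted p under 0.05 there were 4 on the q2 side (23.5%, against 10.5% of all tested genes). On the q1 side there were 2 (11.8%, against 8.29%). ESCRT-I and ESCRT-II gather ubiquitinated receptors on endosomes, and their tested members held 3 of the 4 highest Vps ratios, the other being that of Vps72, described below. Vps28, a core subunit of ESCRT-I, had 69.1 in q2 and 26.8 in q1 in the authors' deposited table (2.57-fold higher in q2, log2 ratio 1.36, Cuffdiff p = 0.00295, q = 0.0578). It was just outside the threshold. The gene occupies bases 76622087 to 76626086 on the minus strand of chromosome 15 (GRCm38) and shares exon sequence with its neighbour Tonsl on the same strand. Both ESCRT-II members under the naming rule were higher in q2 at an unadjusted p only. Vps25 had 79.1 in q2 and 47.9 in q1 in the authors' deposited table (0.72, Cuffdiff p = 0.0288, q = 0.200), and an annotated transcript of Ramp2 shares its exons. Vps36 had 76.6 in q2 and 48.1 in q1 in the authors' deposited table (0.67, Cuffdiff p = 0.0157, q = 0.152). The remaining ESCRT-II subunit, Snf8, is outside the naming rule and had 35.8 in q2 and 45.1 in q1 in the authors' deposited table (-0.33, q = 0.658), so the ESCRT-II subunits did not share 1 direction. The other ESCRT-I subunits under the rule, Vps37a to Vps37d, were not tested and had values of at most 8.57 in q2 and 6.10 in q1 in the authors' deposited table.

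The ATPases Vps4a and Vps4b take apart the ESCRT-III polymer once a vesicle has been cut off. Vps4b had 25.2 in q2 and 35.3 in q1 in the authors' deposited table (log2 ratio -0.49, Cuffdiff p = 0.0378, q = 0.232), and Vps4a had 23.7 in q2 and 19.98 in q1 (0.25, q = 0.718). Their summed value was 48.9 in q2 and 55.3 in q1. Vps72 is a Vps gene by name only: its product, YL1, deposits the histone variant H2A.Z on chromatin. It had 41.8 in q2 and 23.95 in q1 in the authors' deposited table (0.80, Cuffdiff p = 0.0186, q = 0.164).

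Retromer, the coat-like complex that recycles endosomal cargo, had no tested subunit that passed. Vps29 had 119.1 in q2 and 107.7 in q1 in the authors' deposited table (log2 ratio 0.15), Vps35 had 83.8 in q2 and 104.4 in q1 (-0.32, Cuffdiff q = 0.315), and Vps26a had 31.1 in q2 and 31.4 in q1 (-0.01). Vps26b was not tested. The HOPS and CORVET tethers, which act before fusion at late and early endosomes, gave log2 ratios between -0.20 for Vps41 and 0.26 for Vps33a, and of their 5 tested subunits 4 lay above 0. GARP, the tether for vesicles that return to the trans-Golgi, held the lowest Vps ratio. Its subunit Vps54 had 12.1 in q2 and 18.4 in q1 in the authors' deposited table (-0.61, Cuffdiff p = 0.0241, q = 0.184), whereas Vps52 had 0.29 and Vps51, which shares exons with Tm7sf2, had -0.07.

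**Figure D2:**
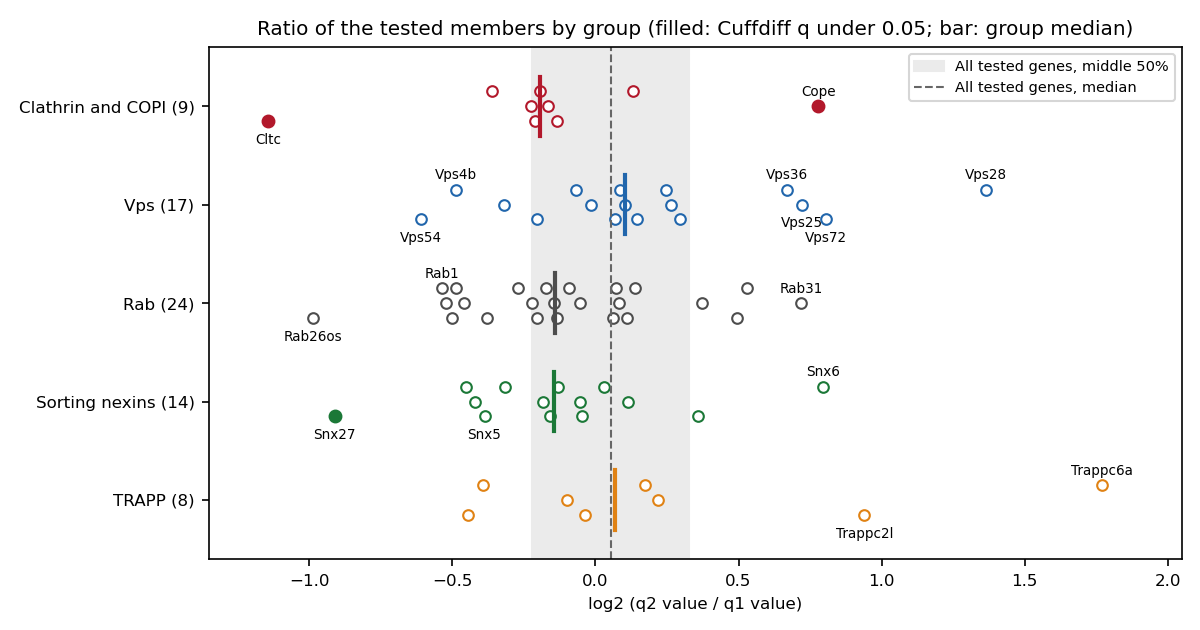
Log2 ratio of the q2 over the q1 value for each tested gene, by family, with the number tested in brackets; filled points have a Cuffdiff q under 0.05, bars are family medians, and the grey band and dashed line give the middle 50% and the median of all tested genes. The medians run from -0.19 for the coat genes to 0.10 for the Vps genes, and most points lie in or near the band.

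Of the 24 tested Rab genes, 0 had a Cuffdiff q under the threshold, against 4.25% of all tested genes. An unadjusted p under 0.05 was reached by 2 (8.33%, against 18.8% of all tested genes). The median log2 ratio of the 24 was -0.14, with 15 ratios below 0 and 9 above, and it was 0.049 with the untested Rab genes included. Rab1 (annotated as Rab1a), which directs traffic from the endoplasmic reticulum to the Golgi, had 60.4 in q2 and 87.6 in q1 in the authors' deposited table (log2 ratio -0.54, Cuffdiff p = 0.0076, q = 0.101). Its close copy Rab1b had 106.3 in q2 and 82.1 in q1 in the authors' deposited table (0.37, Cuffdiff p = 0.0688, q = 0.308). The summed value of the pair was 166.8 in q2 and 169.6 in q1. Rab31, a relative of Rab22a that acts between the trans-Golgi and endosomes, was the other gene with an unadjusted p under 0.05, with 19.2 in q2 and 11.7 in q1 in the authors' deposited table (0.72, Cuffdiff p = 0.0224, q = 0.179).

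Along the endocytic route, the early endosome GTPase Rab5c had 93.1 in q2 and 88.7 in q1 in the authors' deposited table (log2 ratio 0.07) and its copy Rab5a had 17.9 in q2 and 23.3 in q1 (-0.38). Rab7, the GTPase of late endosomes, had 53.4 in q2 and 51.2 in q1 (0.06), and Rab9, which serves the return from late endosomes to the Golgi, had 21.1 in q2 and 21.9 in q1 in the authors' deposited table (-0.05). The recycling GTPase Rab11a had 13.5 in q2 and 19.1 in q1 (-0.50, Cuffdiff q = 0.433), and Rab4a, of fast recycling, had 38.3 in q2 and 27.1 in q1 in the authors' deposited table (0.50, q = 0.413). On the secretory side, Rab8a, which acts in export to the surface, had 56.8 in q2 and 53.7 in q1 (0.08), and Rab6a of the Golgi had 19.9 in q2 and 21.9 in q1 in the authors' deposited table (-0.14). Rab2a, of the early Golgi, had a log2 ratio of -0.49 (q = 0.366). None of these differences passed. Of the 9 genes for Rab partners, 2 were tested: Rab3ip, an exchange factor for Rab8 (-0.22), and Rab11fip4, a Rab11 effector (0.53). The most negative Rab ratio, -0.99, belonged to Rab26os, a non-coding antisense RNA that holds the small nucleolar RNA Snord60 in an exon. Its values were 26.6 in q2 and 52.7 in q1 in the authors' deposited table (Cuffdiff q = 0.675). That is only about 10.9 read equivalents in q2 and 19.0 in q1, and reads of Rab26os and Snord60 cannot be told apart.

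TRAPP complexes share a small core and differ in the large subunits added to it. Of the 8 tested subunits, 0 passed by the Cuffdiff q, against 4.25% of all tested genes. None reached an unadjusted p under 0.05, against 18.8% of all tested genes. The core subunits Trappc6a and Trappc2l nevertheless had the first and the third highest ratios of all 72 genes. Trappc6a had 22.6 in q2 and 6.63 in q1 in the authors' deposited table (log2 ratio 1.77, Cuffdiff p = 0.0583, q = 0.285), which is only about 24.5 read equivalents in q2 and 6.30 in q1. Trappc2l had 62.7 in q2 and 32.7 in q1 in the authors' deposited table (0.94, Cuffdiff p = 0.0532, q = 0.274). The other tested core subunits, Trappc1, Trappc3, Trappc4 and Trappc6b, had log2 ratios between -0.10 and 0.22. The TRAPPIII subunits, which act in autophagy and secretion, had -0.45 for Trappc11 (21.6 in q2 and 29.5 in q1, q = 0.275) and -0.39 for Trappc8 (17.0 in q2 and 22.3 in q1 in the authors' deposited table, q = 0.387).

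The ratios of the members followed the base composition of their transcripts. Across the 71 tested protein-coding members the log2 ratio was higher at a higher GC content of the transcript (Spearman's rho = 0.52) and lower at a greater length (rho = -0.38). Over all 5476 tested protein-coding genes the same values were 0.47 and -0.41, so with all families together the relation is that of the whole table. It is a description across genes, which share the same libraries and are not independent replicates. Among the 24 members with the lowest GC content (39.5% to 45.6%), 3 ratios lay above 0 (12.5%, against 25.4% of all coding genes there). Their median was -0.26, where all coding genes in that range had a median of -0.23. For the 24 members with 46.0% to 53.0% GC, 11 lay above 0 (45.8%, against 50% of all coding genes in the range). Their median was -0.05, against -0.001. Among the 23 with 53.0% to 62.0% GC, 16 lay above 0 (69.6%, against 76.3%), with a median of 0.11, against 0.22. By family, Spearman's rho with GC content was 0.87 over 9 coat genes, 0.86 over 8 TRAPP genes, 0.58 over 17 Vps genes, 0.56 over 24 Rab genes and -0.09 over 14 sorting nexins. With length, rho was 0.08 over the 24 Rab genes, which include the short non-coding Rab26os. It was -0.78 over the coat genes, -0.55 over the Vps genes, -0.49 over the sorting nexins and -0.48 over the TRAPP genes.

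Cltc and Snx27 lay below this trend, and Cope and Vps28 above it. When the median ratio of the 200 tested coding genes most like each member in length and GC content was subtracted, Cltc kept a log2 ratio of -0.85, Snx27 -0.77, Cope 0.41 and Vps28 0.90. Snx6 (0.89), Vps36 (0.82) and Rab31 (0.74) came out somewhat larger than their unadjusted ratios. Rab1 came to -0.28, Rab1b to 0.09, Snx5 to -0.24 and Vps4b to -0.15. Vps54 came to -0.26, Vps25 to 0.42 and Vps72 to 0.44. Apart from Snx6, Vps36 and Rab31, all of these were smaller in size than the unadjusted ratios. Of the 72 genes, 13 had the other sign after the subtraction. What part the trend has in the deposited p-values was not tested.

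**Figure D3:**
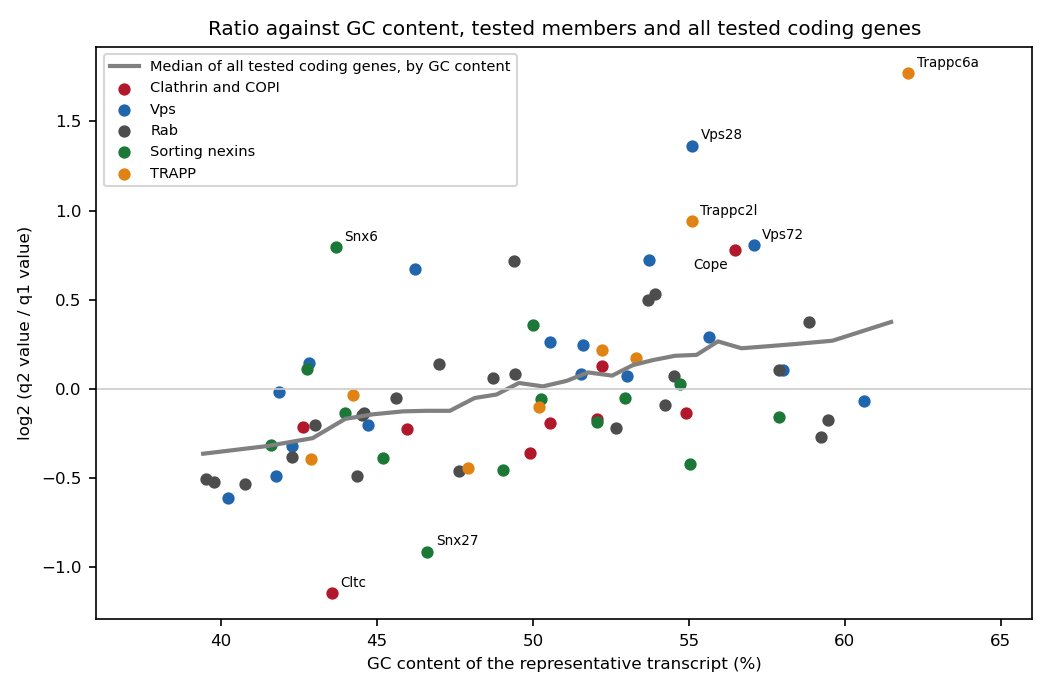
Log2 ratio of the q2 over the q1 value against the GC content of the representative transcript, for the tested protein-coding members by family; the grey line joins the medians of all tested protein-coding genes in 25 bins of GC content. Points climb from left to right with the line, with Cltc and Snx27 below it and Snx6, Vps28 and Trappc6a above it.

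Related copies of a gene can differ in base composition. Among the tested coding members, 10 pairs were each other's nearest relatives within their family, with at least 65% identical bases over the aligned coding sequence. In 9 of the 10 pairs the 2 members had ratios of opposite sign, the exception being Snx12 (-0.45) and Snx3 (-0.05). Some of these ratios were small, as for Snx1 (-0.05) and Snx2 (0.11), and no gene of any pair passed by the Cuffdiff q. With the length and GC trend subtracted, Rab5a (-0.16) and Rab5c (-0.13) shared a sign, as did Rab10 (0.02) and Rab8a (0.20). The other opposite pairs stayed opposite. The member with the higher GC content had the higher ratio in 6 of the 10 pairs. Summed within pairs, the log2 ratios lay between -0.26 and 0.23. No difference within a pair was tested, for the same reason as for the clathrin chains, and the pairs were defined after the ratios had been seen.

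Coding stretches of 2 pairs are shown because they let a reader see how far copies with opposite ratios differ in sequence. Each is the most similar 90 aligned bases of the pair, read 5′ to 3′ from GENCODE M21 transcripts (GRCm38), with the bases that differ between the copies in capitals and positions counted from 1 at the first base of the start codon. The Vps4 stretches cover coding bases 982 to 1071 of Vps4a on chromosome 8 and 1003 to 1092 of Vps4b on chromosome 1.
Vps4a: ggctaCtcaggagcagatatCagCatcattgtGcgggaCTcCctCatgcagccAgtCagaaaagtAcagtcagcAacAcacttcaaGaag
Vps4b: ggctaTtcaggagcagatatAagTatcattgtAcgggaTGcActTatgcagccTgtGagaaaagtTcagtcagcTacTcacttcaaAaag
Of the 14 differences, 13 fall in the last position of a codon, and Vps4a has G or C at 9 of the 14 and Vps4b at 2. The coding sequences were 72.7% identical, with a longest shared run of 14 bases. The copy with more GC, Vps4a, had the higher log2 ratio, 0.25 against -0.49.

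The Snx stretches, bases 325 to 414 of Snx5 on chromosome 2 and 328 to 417 of Snx6 on chromosome 12, are shown as a pair in which the copy with less GC in its transcript had the higher ratio.
Snx5: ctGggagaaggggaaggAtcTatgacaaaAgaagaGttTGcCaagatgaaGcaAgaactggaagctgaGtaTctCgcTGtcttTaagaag
Snx6: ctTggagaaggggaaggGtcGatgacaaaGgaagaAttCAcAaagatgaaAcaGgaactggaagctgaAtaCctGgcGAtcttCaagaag
Of their 16 differences, 14 fall in the last position of a codon, with G or C at 8 in Snx5 and at 9 in Snx6. The coding sequences were 67.3% identical, with a longest shared run of 15 bases. The whole transcripts had a GC content of 45.2% for Snx5 and 43.7% for Snx6, and the log2 ratios of -0.39 and 0.80 were the farthest apart of the 10 pairs.

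**Figure D4:**
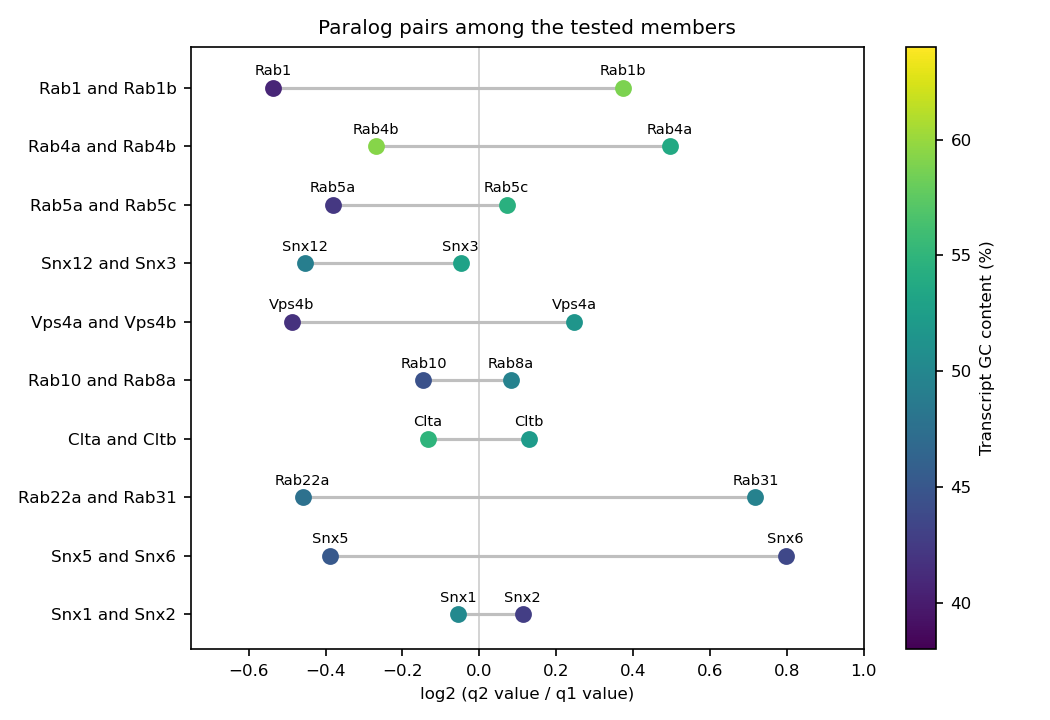
Log2 ratios of the 10 pairs of related copies among the tested members, from the pair with the most similar coding sequence (top) to the least similar (bottom), coloured by the GC content of the transcript. A line joins the copies of a pair, and in 9 pairs it crosses 0.

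Transport genes outside the naming rule, from a list of 173 that covers COPII, adaptor complexes, clathrin accessory proteins, other ESCRT subunits, the exocyst and COG tethers, SNAREs and Rab regulators, gave 1 of 103 tested genes that passed (0.971%, against 4.25% of all tested genes). It was Sec16a, the organiser of endoplasmic reticulum exit sites, with 15.3 in q2 and 23.9 in q1 in the authors' deposited table (log2 ratio -0.64, Cuffdiff q = 0.0464). The list's median log2 ratio was -0.01, and 50 of the 103 lay above 0, where 55.3% of all tested genes did. At an unadjusted p under 0.05 there were 7 higher in q2 (6.8%, against 10.5% of all tested genes). Higher in q1 were 6 (5.83%, against 8.29%). The clathrin adaptors AP1 and AP2 did not share 1 direction, and none of their tested subunits passed. Ap2b1, of AP2, had 19.3 in q2 and 30.2 in q1 in the authors' deposited table (-0.65, q = 0.0620), and Ap1m2, of AP1, had 27.6 in q2 and 12.2 in q1 (1.17, q = 0.0958). The other tested AP2 subunits had log2 ratios of 0.33 (Ap2a2), -0.004 (Ap2a1) and -0.03 (Ap2s1). The KDEL receptors, which COPI vesicles return to the endoplasmic reticulum, did not share 1 direction either, and none passed. Kdelr1 had 57.2 in q2 and 33.3 in q1 in the authors' deposited table (0.78, Cuffdiff q = 0.109). The log2 ratio was -0.14 for Kdelr2 (Cuffdiff q = 0.782). Kdelr3 had only 9.11 in q2 and 16.4 in q1 in the authors' deposited table (-0.85, Cuffdiff q = 0.799). Of the 14 tested genes for COPI adaptors, cargo receptors and Arf, 6 ratios lay above 0 and 8 below. ESCRT subunits outside the rule had the highest family median, 0.17, with 10 of 13 above 0, led by Chmp6 (0.61) and Chmp2a (0.54). Their median transcript GC content was 54.1%. All tested coding genes in the bins with a median GC content of 53.8% and 54.6% had median log2 ratios of 0.16 and 0.19. The trend was not subtracted for this list. Of these 13, 0 passed by the Cuffdiff q. An unadjusted p under 0.05 was reached by 1 (Chmp1a, 0.47), or 7.69%, against 18.8% of all tested genes.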

How the data were processed

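Total RNA without rRNA and small RNA (below 200 nt) went into an Ion OneTouch kit, per the labels' protocols. Per the submitters' processing notes, the authors used TopHat, Cuffdiff and the builds mm10 and GRCm38.p4, and no source used here gives their versions or options. The authors deposited 1 table with a value per gene and condition, a p-value and a q-value; the unit of the values is not stated. The deposited fold column, damaged by a spreadsheet, was replaced by ratios computed from the values. Deposited q-values differed by at most 5.24e-07 from a Benjamini-Hochberg adjustment of the p-values. As the table is not split by library, the only test is the authors' own, by Cuffdiff.

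Transcripts (1 per gene), GC content and coordinates come from GENCODE M21 (GRCm38), matched by symbol or RefSeq synonym for all 158 members. Copies were sought with BLAST+ 2.17.0 (95% identity over 200 bases). Of low single-transcript genes, 75.2% in q2 and 81.0% in q1 lay within 0.15 of a whole step. Functions for adjustment and trend were tested on simulated data (Python 3.11.15, pandas 2.3.3). Named genes are members that passed, had an unadjusted p under 0.05, form a coat or complex, or lead their family in value or ratio; a few further members were named after their values were seen. Members and lists were chosen with earlier results of these data known. Alternatives covered thresholds, filters, a pseudocount, recentring, the length and GC trend, overlaps and membership.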

Additional observations from a re-analysis of the deposited data

How the results depend on the processing

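Cltc passed at a q under 0.01, and Snx27 and Cope did not. At a q under 0.01 there were thus 0 members higher in q2 and 1 higher in q1, with 0 coat genes higher in q2 and 0 sorting nexins higher in q1. At a q under 0.1 the counts were 2 higher in q2, with Vps28 as the 1 Vps gene, and 2 higher in q1. When q was adjusted over protein-coding genes alone, Cope no longer passed, which left 0 members and 0 coat genes higher in q2. At an unadjusted p under 0.05 there were 7 members higher in q2 (9.72%, against 10.5% of all tested genes). In q1 there were 6 (8.33%, against 8.29%). By family these were 1 and 1 Rab (4.17% each), 4 and 2 Vps (23.5% and 11.8%), and 1 and 2 sorting nexins (7.14% and 14.3%). For the transport genes outside the naming rule, the alternatives were chosen after seeing the data. At a q under 0.1 they gave 1 gene on the q2 side and 2 on the q1 side. At a q under 0.01 they gave 0 on the q1 side. At an unadjusted p under 0.05 they gave 7 (6.8%, against 10.5% of all tested genes) and 6 (5.83%, against 8.29%). The share of all tested genes was not computed at a q under 0.01 or 0.1, or with the adjustment over protein-coding genes alone. Counts at those settings, of members and of other genes, are therefore not set against the whole table. Family medians shifted by less than 0.1, with no change of sign, under every other alternative, except 3. With untested genes included, the Rab median was 0.049 and the TRAPP median 0.17. With the length and GC trend subtracted, the TRAPP median was -0.070. Among single genes, recentring turned the sign of Snx17 alone, and subtracting the trend turned 13 signs, none of a gene that passed. No paired analysis was possible because the table is not split by library, and leaving out a replicate could not be run for the same reason. Depth limits the low members: at about 1380000 fragments in q2 and 1210000 in q1, a gene such as Trappc6a rests on few reads. The 86 untested genes have no test in the table, so nothing is said of their differences.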
